A study of Homo sapiens with 8 samples.

Results

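The regions described here are the 252 stretches of the human genome that lay between genes and carried a ZNF676 ChIP-seq peak in H1 cells. They were chosen by the positions of the H1 peaks: overlapping peaks of the 3 H1 lists were merged, regions found in 2 or 3 of these lists were kept, and those that touched no gene body and no window of 1 kb around a transcription start site (TSS) in GENCODE release 44, lifted to GRCh37, were retained. Of 554 merged H1 regions, 252 lay between genes, 253 lay inside gene bodies and 49 overlapped a promoter window. H1 is a human embryonic stem cell line. The H1 cells carried ZNF676 with a triple HA tag in the lentiviral pRRL-IRES-Blast backbone and were selected with blasticidin. HEK293T, a human embryonic kidney cell line, carried the tagged protein in the pTRE backbone, was selected with puromycin and received doxycycline to induce expression. Each line gave 3 libraries precipitated with an antibody against HA, described in the study's methods as biological triplicates, and 1 input, which served as the control for peak calling and is not analysed here. Both lines overexpressed an added, tagged protein, so the peaks do not describe ZNF676 at its natural level. The lists hold peak positions and scores only, and the identity of the cells was not checked against expression markers.

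ZNF676 is a KRAB zinc finger protein. Proteins of this family bind DNA through arrays of zinc fingers, many of them at transposable elements, and their KRAB domain recruits the corepressor KAP1 (TRIM28), which leads to silent chromatin at the bound element. LTR12C is the long terminal repeat of ERV9, an endogenous retrovirus of primates, and copies of it lie scattered through the human genome, where the repeat can act as a promoter or enhancer of neighbouring genes. As the reference copy served the LTR12C element used in the repression assay of the study. Its primers placed it at chr6:52651110-52652658 of GRCh37 on the plus strand, 1549 bases long, and positions below are counted from 1 at its 5′ end.

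The sequences below are shown because most of the regions shared one 14-base stretch of this element, positions 36 to 49. Regions are numbered R1 to R252, first those with a peak in all 3 H1 lists and then those with a peak in 2, each in order of mean rank. All are from GRCh37, in the direction of the element, and the capitals mark positions 36 to 49 or the bases that align best with them. The stretch of the element (chr6:52651115-52651184, plus strand) lies in R51. R1 (chr12:79955131-79955200, plus) and R4 (chr11:3609759-3609828, plus) are from the regions of highest rank. R4 carries the substitution T37C relative to the element. R205 (chr4:24601241-24601310, minus) and R207 (chr9:67251356-67251425, plus) are from the regions of lowest rank with a peak in all 3 H1 lists, and R205 carries G41A.
element: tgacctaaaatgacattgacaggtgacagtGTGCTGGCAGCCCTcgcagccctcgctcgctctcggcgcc
R1: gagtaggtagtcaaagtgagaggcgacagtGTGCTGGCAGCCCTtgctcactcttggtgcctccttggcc
R4: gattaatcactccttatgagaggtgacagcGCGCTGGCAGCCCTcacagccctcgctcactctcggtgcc
R205: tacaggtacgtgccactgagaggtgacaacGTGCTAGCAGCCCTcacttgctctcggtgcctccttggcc
R207: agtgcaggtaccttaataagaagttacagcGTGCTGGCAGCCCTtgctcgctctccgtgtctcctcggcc

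The H1 lists of replicates 1, 2 and 3 held 637, 576 and 495 peaks, and the HEK293T lists held 1711, 1432 and 1257. The reads left in each library after filtering are not given in the lists, so the depth behind a single peak is unknown. The authors' score was used only as a percentile rank within its list, in which 100 is the strongest peak. PCR duplicates were removed from the H1 libraries, per the study's methods, and no such step is stated for HEK293T. Cell line, vector, drug treatment and duplicate removal therefore cannot be told apart in any comparison of H1 with HEK293T. P-values over libraries measure only the spread between these libraries.

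Most of the regions were copies of the LTR12C-like repeat, and nearly all of those copies were bound at one end of it. Of the 252 regions, 207 had a peak in all 3 H1 lists and 45 in 2 of them. Their median width was 456.5 bp, with a range of 225 to 997 bp. A region was called LTR12C-like when at least 100 of its bases aligned to the cloned element, and 219 of 252 were (86.9%, exact Clopper-Pearson 95% interval 82.1 to 90.8%, which like the other intervals covers counting error only), against 84.5% of all 554 H1 regions. Of the H1 regions in gene bodies, 218 of 253 were LTR12C-like (86.2%, interval 81.3 to 90.2%), and of those at promoters 31 of 49 (63.3%, interval 48.3 to 76.6%). The remaining regions between genes fell into 20 with under 20% G and C, a limit set after the sequences had been seen, and 13 others.

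Centres of these LTR12C-like copies lay close to the 5′ end. The median centre was at position 64, with the 5th and 95th percentiles at 22 and 121, and 218 of 219 centres lay within positions 1 to 200, called the bound part below. The one exception, R199, at 72399 bp from a TSS of the lncRNA gene ENSG00000234686, had its centre at position 998 and ranked low in H1, with scores of 286, 166 and 150. The aligned bases of the 219 regions were 81.2% identical to the element at the median, with a range of 71.0 to 100%, and 121 of the 219 elements lay on the plus strand (55.3%, interval 48.4 to 62.0%).

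**Figure D1:**
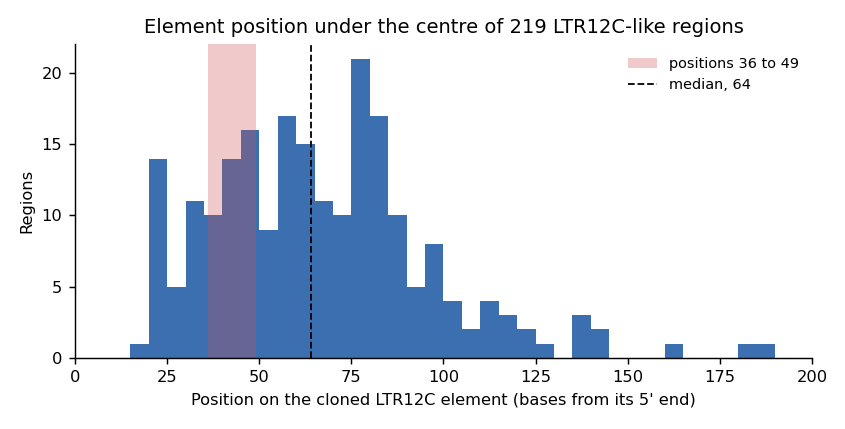
Histogram of the position on the cloned LTR12C element (bases from its 5′ end, x axis) that lay under the centre of each LTR12C-like H1 region between genes (number of regions in bins of 5 bases, y axis). The dashed line is the median, 64, the shaded band marks positions 36 to 49, and R199, at 998, lies beyond the axis.

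The 5′ end of the element cloned by the study lay in one of the regions, R51, which covered the first 290 bases of it. R51 lay 12696 bp from a TSS of GSTA1, a glutathione transferase gene. Its scores were 1267, 1120 and 689 in H1 replicates 1, 2 and 3, and 2681, 957 and 1697 in HEK293T replicates 1, 2 and 3. These scores placed it at the 79.6th percentile on average in H1 and the 93.9th in HEK293T, ranks that are not comparable between lists of different length.

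The strongest regions were named by their mean percentile rank over the H1 lists. This ranking used the values that chose the regions and is given as a description. R1, at chr12:79954855-79955607, had H1 scores of 9875, 5090 and 3416 and HEK293T scores of 1395, 852 and 1112. It was the strongest peak of H1 replicate 1. Its nearest protein-coding TSS, 34707 bp away, belonged to PAWR, a gene for a proapoptotic regulator. R42 and R13 followed it on the same chromosome, with gaps of 2703 bp between R1 and R42 and 8286 bp between R42 and R13. All 3 held the exact 14-base stretch and had a peak in all 6 lists, so this was a row of 3 bound LTR12C-like elements on 1 strand.

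R2, at chr8:29945120-29945730, was the strongest region with no HEK293T peak. Its H1 scores were 6253, 5084 and 3552, at the 99.7th percentile on average, and no HEK293T list had a peak there. It lay 4396 bp from a TSS of SARAF, a regulator of store-operated calcium entry. R3, at chr8:42455408-42456089 and 53837 bp from a TSS of SMIM19, was strong in both lines, with 6034, 2969 and 2317 in H1 and 3630, 2206 and 2925 in HEK293T. R2 thus stood at the top of the H1 lists and R3 at the top of the lists of both lines.

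R4, at chr11:3609497-3610162, had scores of 4425, 2976 and 2216 in H1 and 4695, 3130 and 4133 in HEK293T. Its nearest protein-coding gene was ART5, an ADP-ribosyltransferase gene, with a TSS 51365 bp away. R5, at chr10:120519870-120520495, scored 5125, 2970 and 1724 in H1 and 1229, 936 and 848 in HEK293T. It lay 5109 bp from a TSS of CACUL1, whose product is a cullin-domain protein that associates with CDK2. Among these strongest 5 regions, only R2 lacked a peak in HEK293T.

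At the other end, the regions of lowest rank with a peak in all 3 H1 lists were R207, R206 and R205. R207 (chr9:67251219-67251616, with a TSS of FAM27E3 535008 bp away) scored 288, 141 and 98 in H1 and 270, 195 and 177 in HEK293T. R206 (chr7:96663318-96663695) scored 216, 151 and 135 in H1 and 421, 274 and 445 in HEK293T, and lay 9056 bp from a TSS of the homeobox gene DLX5. R205 (chr4:24601077-24601440), 14900 bp from a TSS of the splicing helicase gene DHX15, scored 246, 176 and 106 in H1 and had peaks in HEK293T replicates 1 and 3, with scores of 84 and 199. These weak H1 regions were still LTR12C-like, and R206 and R207 had a peak in every HEK293T list.

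The 45 regions with a peak in 2 H1 lists had a median rank at the 16.8th percentile, against 59.4 for the 207 with a peak in all 3. Between genes, 57 merged regions had a peak in only 1 H1 list and were left out, and their median rank was at the 11.7th percentile. The limit of 1 kb from a TSS is given by its neighbours on each side. Just inside it were R217, at 1054 bp from a TSS of LINC01882, and R247, at 1078 bp from a TSS of PLSCR2, a gene of the scramblase family, both LTR12C-like with a peak in 2 H1 lists and in no HEK293T list. Just outside it were a region 832 bp from a TSS of KMT2E, a gene of the MLL family, with a peak in 3 H1 lists and 1 HEK293T list, and one 828 bp from a TSS of ENSG00000276807, with a peak in 2 H1 lists and 3 HEK293T lists, and both were LTR12C-like as well.

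The short sequence that the regions had most often in common lay within the bound part. Of all 12-base words, GCTGGCAGCCCT, at positions 38 to 49 of the element, was found on either strand in the largest number of regions, 186 of 252 (73.8%), against 0.0220% of all 6268688 windows of 456 bases in the genome that held no undetermined base. The words TGCTGGCAGCCC (184 regions, 0.0222% of windows) and GTGCTGGCAGCC (181 regions, 0.0174% of windows) overlap it. A separate word, TGAGAGGTGACA, was found in 167 regions (66.3%, against 0.0434% of windows), and it can be read a few bases upstream of the capitals in R4 and R205. The first 3 words, joined, give GTGCTGGCAGCCCT, positions 36 to 49, which was chosen after the data had been seen and is used only to describe them.

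The exact stretch, on either strand, was found in 180 of 252 regions (71.4%, interval 65.4 to 76.9%), against 0.00774% of genome windows (485 of 6268688). A further 40 regions had it with 1 mismatch. H1 regions in gene bodies held it as often, in 178 of 253 (70.4%, interval 64.3 to 75.9%), and those at promoters in 16 of 49 (32.7%, interval 19.9 to 47.5%). It was found in 178 of the 219 LTR12C-like regions, in all 178 on the strand of the element, in 0 of the 20 regions of low G and C, and in 2 of the 13 others. The stretch lay near the middle of the peaks: its centre was a median of 22.2 bp from the centre of the region, and 154 of 180 were within 50 bp. CCAAT or its complement ATTGG, the box bound by NF-Y, was found in 60 of 252 regions (23.8%, interval 18.7 to 29.6%), against 51.5% of genome windows of 456 bases. The windows were not matched to the regions in G and C, which made up 52.3% of the bases of the regions. The LTR12C-like regions covered only part of the element, with a median of 254 aligned bases. CCAAT in the rest of each repeat was not counted, so the share does not describe whole LTR12C copies.

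Regions with the exact stretch ranked higher than the other LTR12C-like regions in every list. In H1 replicates 1, 2 and 3 the median percentile was 67.0, 62.7 and 59.3 with the exact stretch and 39.0, 24.8 and 37.7 with 1 or more mismatches. In the HEK293T lists, which were not used to choose the regions, the corresponding medians were 85.9, 79.9 and 79.8 with it and 61.6, 63.4 and 60.8 without it. The difference had the same direction in all 6 lists. The 1-mismatch regions nevertheless included R2, R3 and R4, so a mismatch did not keep a region from the top of the lists.

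To see which copies of the element had no peak, all copies of its bound part in the genome were located by blastn. There were 2713 copies with at least 100 aligned positions, of which 1463 lay between genes, 996 in gene bodies and 254 at promoters. Of the 1463 copies between genes, 218 overlapped an H1 region (14.9%, interval 13.1 to 16.8%), and 1245 did not. Copies in an H1 region and copies in none had alignments of nearly the same length, 178 positions at the median in both sets, and were 86.0% and 84.7% identical to the element at the median.

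The 2 sets of copies differed most at position 46. Copies in an H1 region had C there in 92.2% and T in 0%, and copies in none had C in 27.3% and T in 50.4%. The next largest difference, of 37.3 percentage points, was at position 97, with C in 82.1% and 44.8%, and position 36 followed, with G in 90.8% and 55.5%. In total, 6 of the 200 positions differed by more than 30 points. Copies with no aligned base at position 46 made up 7.80% of the copies in an H1 region and 21.8% of the others. Copies in gene bodies showed nearly the same base shares, with C at position 46 in 91.4% of those in an H1 region and 26.2% of the rest. Bases at different positions are inherited together in families of copies, so the part of any single base cannot be told apart from that of its linked neighbours.

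**Figure D2:**
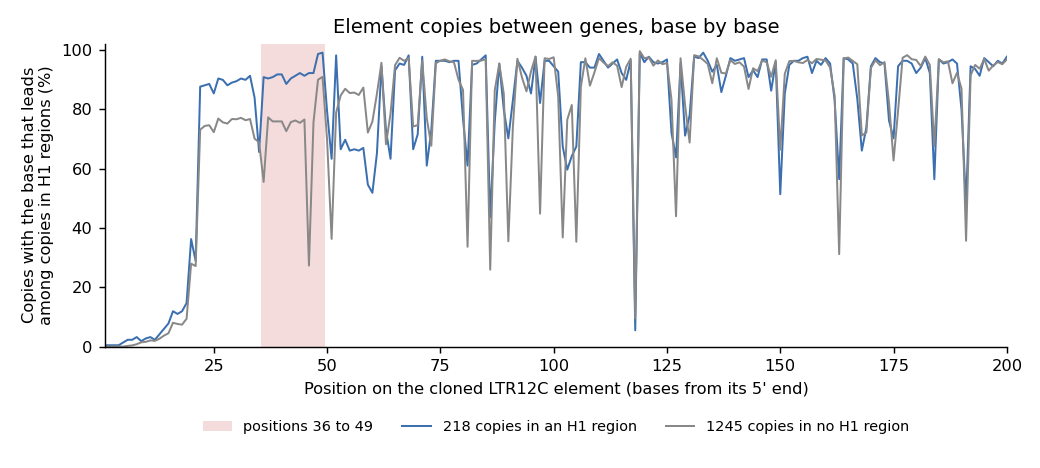
Share of the element copies between genes (y axis, percent) that carry, at each of positions 1 to 200 of the cloned element (x axis), the base most frequent among copies in an H1 region, for the 218 copies in an H1 region (blue) and the 1245 in none (grey). The lines differ by over 30 percentage points at 6 of the 200 positions and lie farthest apart at position 46, at 92.2% and 27.3%. Copies with no aligned base at a position count as lacking the base. They made up 99.5% (blue) and 100% (grey) at position 1, 7.80% and 21.8% at position 46, and 92.2% and 87.7% at position 118.

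Occupancy was highest for copies that matched all 14 bases. Of 217 copies between genes with the exact stretch, 178 overlapped an H1 region (82.0%, interval 76.3 to 86.9%) and 190 a HEK293T region (87.6%, interval 82.4 to 91.6%), where a HEK293T region is a merged region with a peak in at least 2 of its 3 lists. Of 763 copies with 1 mismatch, 37 overlapped an H1 region (4.85%, interval 3.44 to 6.62%) and 69 a HEK293T region (9.04%, interval 7.10 to 11.3%). Of 372 copies with 2 mismatches, 3 overlapped an H1 region (0.806%) and 6 a HEK293T region (1.61%). Of 111 with 3 or more, 0 overlapped an H1 region, which allows a share of up to 2.70%, taken as 3 counts of the total as for the other counts of 0 below, and 3 overlapped a HEK293T region (2.70%, interval 0.561 to 7.70%). Since the stretch was read from copies occupied in these libraries, these shares are a description and were not tested.

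Occupancy at 1 mismatch also differed with the base concerned. The most frequent single difference was C46T, in 418 copies between genes. Of these, 0 overlapped an H1 region or a HEK293T region, which allows a share of up to 0.718%, and 1 had a peak in any of the 6 lists, in H1 replicate 1. In gene bodies, 0 of 262 C46T copies overlapped a region of either line. By alignment, T at position 46 was found in 628 copies between genes, of which 0 overlapped an H1 or HEK293T region, and in 410 copies in gene bodies, of which 0 overlapped an H1 region and 1 a HEK293T region.

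Occupancy varied among the other single differences. Of 136 copies between genes with G41A, 19 overlapped an H1 region and 39 a HEK293T region. Of 108 with G36A, 2 overlapped an H1 region and 9 a HEK293T region. Of 10 copies with A44G, 0 had a peak in any list, and the same held for the 3 copies with G42T. Other rare differences included G42A, with 4 of 5 copies in a region of each line, C43T, with 2 of 3 in an H1 region and 3 of 3 in a HEK293T region, and G45A, with 2 of 2 in a region of each line. Without C46T, 37 of 345 copies with 1 mismatch (10.7%, interval 7.66 to 14.5%) overlapped an H1 region and 69 (20%, interval 15.9 to 24.6%) a HEK293T region.

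**Figure D3:**
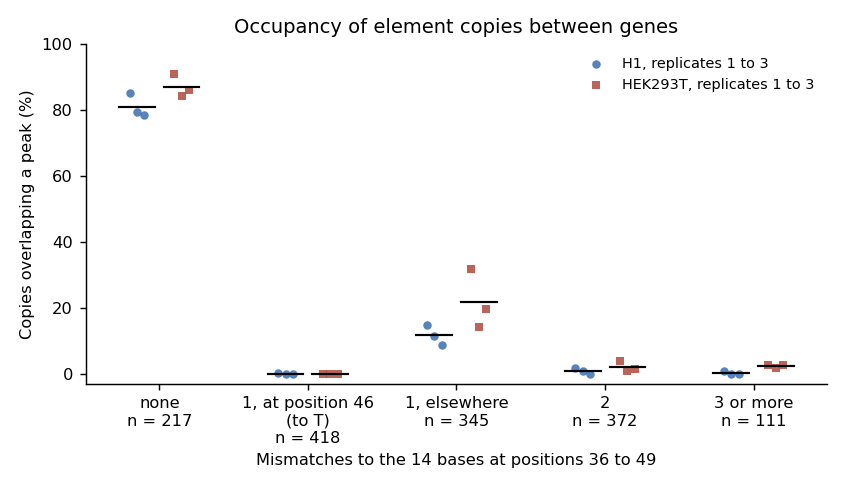
Percent of element copies between genes that overlapped a peak (y axis), by the number and place of mismatches to the 14 bases at positions 36 to 49 (x axis, with the number of copies), for each H1 library (blue circles) and each HEK293T library (red squares), with the mean of 3 as a black line. Copies with no mismatch lie between 78.3% and 90.8% in all 6 lists, and copies with C46T at or near 0.

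The authors removed reads of low mapping quality, which arise at near-identical copies, and how many reads could be placed at each copy is not in the lists. The share of the 50-base words of a copy and its flanks that also occurred in another copy had a median of 3.64% for copies between genes in an H1 region, 11.1% for copies in none and 23.6% for C46T copies. Among copies with under 50% of such words, 175 of 202 with the exact stretch (86.6%) and 0 of 399 with C46T overlapped an H1 region. Among copies with under 5%, the numbers were 101 of 115 (87.8%, interval 80.4 to 93.2%) and 0 of 20 (interval 0 to 16.8%). Exact copies were occupied more often than C46T copies in both subsets. Shared words do not measure how reads were placed, and the part of read placement in this difference was not tested.

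Of the 217 exact copies between genes, 174 overlapped both an H1 and a HEK293T region and 17 had no peak in any list. The 39 that overlapped no H1 region included 16 in a HEK293T region, 5 on chromosome Y and 12 with at least 50% of their 50-base words in another copy. Chromosome Y held 44 of the 1463 copies between genes and none of the 252 regions. The 3 H1 lists held 4 peaks on chromosome Y and the 3 HEK293T lists 0, so every copy there counts as unoccupied in HEK293T.

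Copies between genes were occupied less often than copies in gene bodies in every library. In HEK293T replicates 1, 2 and 3, 22.1%, 16.2% and 18.0% of the copies between genes overlapped a peak, against 26.8%, 21.4% and 23.2% of the copies in gene bodies. The mean difference was -5.02 points (18.8 ± 3.05% against 23.8 ± 2.76%, SD, n = 3, exact two-sided sign-flip permutation test over the libraries, p = 0.25, the smallest that 3 libraries allow). In H1 the shares were 16.7%, 14.7% and 13.7% against 24.6%, 22.1% and 19.9%. The exact stretch was also rarer between genes, in 14.8% of copies (217 of 1463, interval 13.0 to 16.8%) against 20% in gene bodies (199 of 996, interval 17.5 to 22.6%). Among exact copies alone, the HEK293T occupancy was 87.1 ± 3.32% between genes and 91.5 ± 4.52% in gene bodies (SD, n = 3), a difference of -4.36 points. The stretch was read from the H1 regions between genes, so this difference is a description only. Among exact copies with under 50% of their 50-base words in another copy, the shares in a HEK293T region lay close together. They were 187 of 202 between genes (92.6%, interval 88.0 to 95.8%) and 185 of 199 in gene bodies (93.0%, interval 88.5 to 96.1%). The part of shared words in the difference was not tested. Over all copies but those on chromosome Y, with or without the exact stretch, 268 of 1419 between genes (18.9%, interval 16.9 to 21.0%) and 239 of 979 in gene bodies (24.4%, interval 21.8 to 27.2%) overlapped a HEK293T region.

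The next question was how far the H1 regions between genes were also bound in HEK293T. Of 252 regions, 214 overlapped a HEK293T region (84.9%, interval 79.9 to 89.1%), against 84.5% of all 554 H1 regions and 216 of 253 in gene bodies (85.4%, interval 80.4 to 89.5%). Counted by list, 201 regions had a peak in all 3 HEK293T lists, 13 in 2, 24 in 1 and 14 in none. The HEK293T and H1 regions lay on each other: their centres were a median of 22 bp apart over the 214 regions, with the 95th percentile at 87.9 bp.

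HEK293T replicates 1, 2 and 3 had a peak at 94.0%, 82.5% and 82.5% of the regions between genes and at 91.7%, 81.0% and 81.8% of those in gene bodies. The mean difference within a library was 1.53 points, with a range of 0.72 to 2.35 (means 86.4 ± 6.64% and 84.8 ± 5.95%, SD, n = 3, exact two-sided sign-flip permutation test, p = 0.25, the smallest possible), and its direction did not hold under every alternative: it was -0.61 points when the overlap had to cover 50% of the region and -0.34 points without H1 replicate 2. The median HEK293T rank at the regions was at the 83.1st, 77.3rd and 77.5th percentile, against 84.1, 81.9 and 80.6 in gene bodies. This difference of -2.90 percentile points had the same sign in all 3 libraries and the same smallest p of 0.25 in that exact permutation test. With protein-coding genes only as the annotation it was -0.07 points, with signs that differed between libraries (exact permutation test, p = 1.0).

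Binding in HEK293T went with rank in H1 and with the kind of sequence. In order of H1 rank, the strongest 63 regions had 61 in a HEK293T region (96.8%, interval 89.0 to 99.6%), the next 63 also 61, the next 63 had 53 (84.1%, interval 72.7 to 92.1%) and the weakest 63 had 39 (61.9%, interval 48.8 to 73.9%). Of the LTR12C-like regions, 202 of 219 were found there (92.2%, interval 87.9 to 95.4%), of those with under 20% G and C 4 of 20 (20%, interval 5.73 to 43.7%), and of the others 8 of 13 (61.5%, interval 31.6 to 86.1%). Over the 182 regions with a peak in all 6 lists, Spearman's rho between the mean ranks in H1 and in HEK293T was 0.49, a description over regions that share libraries. The HEK293T lists are longer than the H1 lists, so a percentile in one line cannot be set against a percentile in the other, and only the order of the regions within a line is described.

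**Figure D4:**
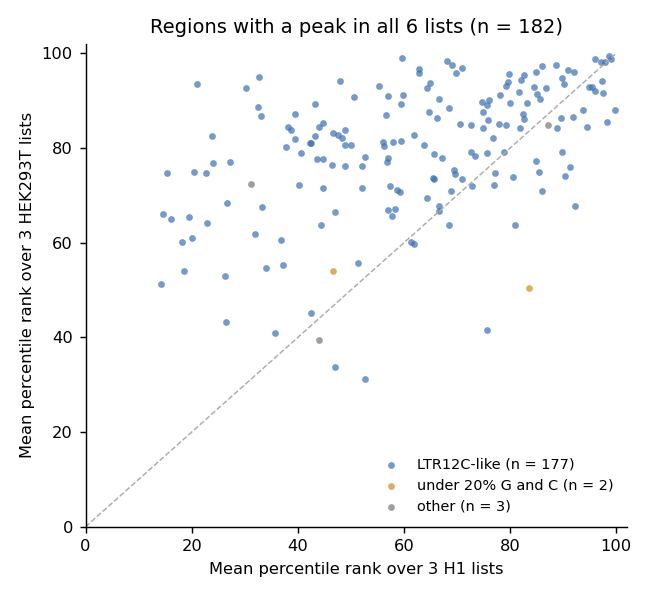
Mean percentile rank of the peak score over the 3 H1 lists (x axis) and the 3 HEK293T lists (y axis) for the 182 regions with a peak in all 6 lists, by kind of sequence, with equal percentiles as a dashed line. Spearman's rho is 0.49, regions without a peak in every list, such as R2, are not drawn, and the height of the points above the line is not comparable between lists of different length.

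Of the 14 regions with no peak in any HEK293T list, 11 were LTR12C-like, 3 were of other sequence and none was of low G and C. After R2, the strongest of them with a peak in all 3 H1 lists were R132 and R185. R132 (chr10:114129097-114129615) scored 671, 359 and 350 in H1 and lay 4259 bp from a TSS of ACSL5, an acyl-CoA synthetase gene. R185 (chr15:26301678-26302034) scored 360, 155 and 208, and its nearest protein-coding gene, the flippase gene ATP10A, had a TSS 191347 bp away. Both held the exact 14-base stretch, whereas R2 had 1 mismatch to it. Of the 219 LTR12C-like regions, 178 held the exact stretch. HEK293T replicate 1 had a peak at 175 of these 178 and at 33 of the others, so a peak was more frequent with the exact stretch.

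The 20 regions with under 20% G and C were of another kind. They held a median of 1.33% G and C, with a range of 0 to 12.3%, and ran mostly in repeats of A and T. The strongest was R39, at chr4:153032686-153033076, 212512 bp from a TSS of FBXW7, the gene of a ubiquitin ligase receptor. R39 scored 1884, 1228 and 673 in H1 and 1195, 217 and 95 in HEK293T.

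A peak at such a region went with the library. All 20 had a peak in H1 replicates 1 and 2 and 13 in replicate 3, and in HEK293T all 20 had a peak in replicate 1, 4 in replicate 2 and 2 in replicate 3. Over whole lists, peaks with under 20% G and C numbered 56, 39 and 21 in H1 replicates 1, 2 and 3, and 55, 23 and 12 in HEK293T replicates 1, 2 and 3. As a share of the list they made up 8.79%, 6.77% and 4.24% in H1 and 3.21%, 1.61% and 0.955% in HEK293T. Replicate 1 had the most such peaks and the longest list in both lines, and the part of list length and of PCR or mapping at such repeats in these peaks was not tested. H1 regions in gene bodies held 18 of this kind, of which 5 overlapped a HEK293T region.

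**Figure D5:**
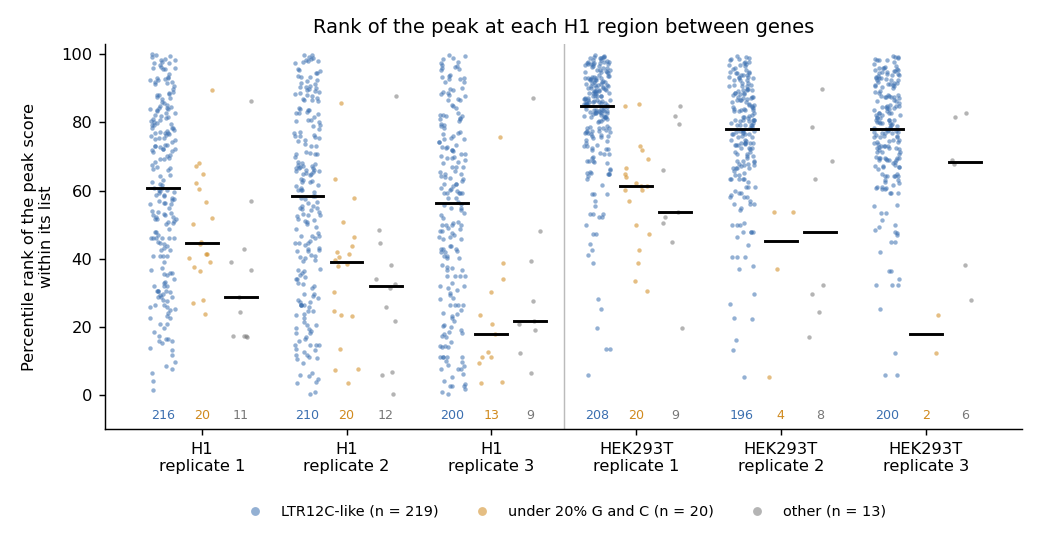
Percentile rank of the peak score within its list (y axis) at each H1 region between genes, by library (x axis) and by kind of sequence, with the median as a black bar and the number of regions that had a peak below. In HEK293T the LTR12C-like regions lie mostly in the upper part of each list, and the regions of low G and C have 20, 4 and 2 peaks in replicates 1, 2 and 3.

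The 13 other regions had a median of 52.8% G and C and included 4 with the 14-base stretch, exact or with 1 mismatch, although fewer than 100 of their bases aligned to the element. R29, at chr6:33464628-33465176 and 41445 bp from a TSS of ZBTB9, held it exactly and scored 1640, 1326 and 905 in H1 and 953, 987 and 862 in HEK293T. R173, 65899 bp from a TSS of the heparan sulfate enzyme gene HS3ST3A1, did too, with scores of 416, 268 and 165 in H1 and 797, 358 and 446 in HEK293T. R174 and R190 held it with 1 mismatch. R221, at chr12:95320-95639 near the chromosome end, held 40 telomere repeat units (TTAGGG or CCCTAA) and scored 180 and 276 in H1 replicates 1 and 2. R121 (chr8:84000775-84001091), of low G and C, was the strongest region after R29 and R39 that was not LTR12C-like and had a peak in all 3 H1 lists, with scores of 749, 587 and 289.

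Chromosome 5 held 23 of the regions, chromosomes 2 and 4 held 22 each, and the X chromosome held 6, of which 3 were LTR12C-like. These counts follow in part the number of element copies between genes, 107, 96, 134 and 74 on chromosomes 5, 2, 4 and X. The share of these copies in a region was 19.6%, 19.8%, 14.2% and 4.05%, beside 14.9% over all chromosomes. It was highest on chromosome 15, at 33.3% of 21 copies. The regions lay at a median of 16472.5 bp from the nearest TSS of any gene and 54549.5 bp from the nearest TSS of a protein-coding gene. Of the 252, 121 had a protein-coding TSS within 50 kb and 36 had none within 500000 bp. The nearest gene was protein-coding for 73 regions, a lncRNA gene for 65 and of another type, pseudogenes included, for 114. Of the 219 LTR12C-like regions, 100 lay on the strand of their nearest protein-coding gene (45.7%, interval 38.9 to 52.5%), 61 of these upstream of its TSS. Within 50 kb of a region were 205 of 20136 protein-coding genes (1.02%).

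Gene lists related to the study's interest in germ cells, early embryos and motile cilia held few neighbours of these regions. The list of motile cilia and axonemal dyneins had 2 of 89 genes within 50 kb (2.25%), the list of germ cells and meiosis 1 of 64 (1.56%), the list of pluripotency and the early embryo 0 of 56, the genes with a known ERV9 or LTR12 promoter or enhancer 0 of 5, and the genes named ZNF 1 of 508 (0.197%), beside 1.02% of all protein-coding genes. Against that background, these counts are too small to set a list apart. The rule left out regions within 1 kb of a TSS and regions in gene bodies. An element at an annotated TSS of a listed gene could therefore not be counted, which limits above all the list of genes with a known ERV9 or LTR12 promoter.

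The nearest of these genes was DNAH11, which encodes an outer arm dynein heavy chain of motile cilia, with a TSS 5762 bp from R65. R65 (chr7:21576412-21576895) scored 959, 884 and 724 in H1 and 1073, 742 and 963 in HEK293T, and its element lay on the strand opposite to the gene. KIT, the receptor of stem cell factor on germ cells, had a TSS 24680 bp from R215 (chr4:55498360-55498754), which had scores of 342 and 257 in H1 replicates 1 and 2, no peak in replicate 3, and 421, 240 and 412 in HEK293T. DNAH14, another dynein heavy chain gene, had a TSS 41270 bp from R224 (chr1:225618712-225619123), which scored 262 and 148 in H1 replicates 1 and 3 and 726, 516 and 675 in HEK293T. R224 lay closer, at 2085 bp, to a TSS of LBR, the lamin B receptor gene. ZNF385D had a TSS 43323 bp from R188 (chr3:22458135-22458508), with scores of 472, 169 and 137 in H1 and no HEK293T peak. R65, R215 and R224 were thus bound in both lines, and R188 in H1 alone by these lists.

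Other protein-coding genes with a TSS close to a region included ARHGAP15, a Rac GTPase-activating protein gene, at 1162 bp from R55, RPE, the gene of ribulose-phosphate epimerase, at 1165 bp from R75, and NCOA5, a nuclear receptor coactivator gene, at 1433 bp from R67. All 3 regions were LTR12C-like, had a peak in every HEK293T list, and carried the element on the strand opposite to the gene. Other near genes did not share these traits. SLC30A10 lay 1360 bp from R238, a region of low G and C with a peak in 1 HEK293T list. COQ10B, 2770 bp from R196, and NSMCE4A, 3413 bp from R97, lay on the strand of the element. VHL, the tumour suppressor that marks HIF for degradation, had a TSS 4670 bp from R172, which had a peak in every HEK293T list. The peak lists hold no expression, and the expression of these genes is not analysed here.

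Peaks between genes made up a larger part of the H1 lists than of the HEK293T lists. The share was 45.5%, 43.9% and 45.5% in H1 replicates 1, 2 and 3 and 28.4%, 23.4% and 27.7% in HEK293T. The difference of 18.5 points (45 ± 0.91% against 26.5 ± 2.71%, SD, n = 3) was larger than the spread between libraries, and the groups did not overlap (exact two-sided permutation test, p = 0.1, the smallest that 3 against 3 allows). With every list cut to the 495 strongest peaks it was 6.46 points, with the same p of 0.1 in that exact test. The rule that chose the regions used these H1 peak positions and the same classes of position. The test therefore lends this difference no support, and the shares are a description. Within the peaks between genes, 84.5%, 84.2% and 87.6% were LTR12C-like in H1 and 64.8%, 68.7% and 72.1% in HEK293T, a difference of 16.9 points (exact permutation test, p = 0.1). This difference turned with list length: among the 495 strongest peaks of each list it was -4.29 points, with H1 below HEK293T (exact permutation test, p = 0.1). Of the 143 HEK293T regions between genes that overlapped no H1 region, 18 held the exact stretch (12.6%, interval 7.63 to 19.2%).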

How the data were processed

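The members, gene lists and rules were chosen with earlier results of these data known. Per the study's methods and the labels, read pairs were aligned by the authors to hg19 (Bowtie2). They removed PCR duplicates in H1 only (Picard, samtools 1.9), removed reads with a mapping quality under 10 and reads in blacklisted or high-input regions, and called peaks per library with MACS2 against the input of the cell line. Versions of Bowtie2, Picard and MACS2 are not given in the sources used here. The deposited lists give position, name and a whole-number score per peak, whose scale they do not state, so it was ranked within each list.

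Of the 6 lists, 0 peaks ended beyond a GRCh37 chromosome. Peaks overlapping by at least 1 bp were merged. Regions and genome were aligned to the cloned element with blastn 2.17.0 (E-value at most 1e-10, at least 100 aligned bases, hits within 300 bp joined). Copies were extended by 150 bp before the 14 bases were matched without gaps. Scripts ran in Python 3.11.15 with scipy 1.17.1, numpy 2.4.6, pysam 0.24.0, pandas 2.3.3 and matplotlib 3.10.9, beside bedtools 2.31.1 and samtools 1.23.1. Merging, alignment and the exact tests were tested on simulated data. The libraries are numbered alike in both lines, but nothing in the labels pairs them.

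Named regions were the 5 with the highest mean percentile rank among those with a peak in all 3 H1 lists, the 3 highest that were not LTR12C-like, the 3 highest with no HEK293T peak and the 3 lowest, with the gene of the nearest TSS, the regions nearest to the 1 kb limit, and every listed gene with a TSS within 50 kb. R13, R42, R51, R172 to R174, R190, R199, R221 and the regions near ARHGAP15, RPE, NCOA5, SLC30A10, COQ10B, NSMCE4A and VHL were named after their values were seen. Alternatives changed list length, libraries needed, TSS window, gene types, overlap, aligned bases and the libraries used. Some sequences are not reported here.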

Additional observations from a re-analysis of the deposited data

How the results depend on the processing

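Of 139 alternative values, 118 kept their direction or stayed near the main value, 18 moved and 3 changed sign. Near meant within its error or, for the number of regions, within a fixed factor. Part of the 118 could not change. Results from the H1 lists alone do not depend on a HEK293T library left out, nor HEK293T occupancy of copies on an H1 library. The replicate block repeats the main differences. The count is therefore no measure of robustness. With the strongest 50% of each list, the regions numbered 131, 96.2% were LTR12C-like, 93.9% overlapped a HEK293T region and 8.61% of copies between genes overlapped an H1 region. With equal list sizes, 72.1% of regions overlapped a HEK293T region, and the LTR12C-like share of peaks between genes, H1 minus HEK293T, was -4.29 points. Requiring all 3 libraries gave 90.8% LTR12C-like, 91.3% in HEK293T and 12.8% of copies, and requiring 1 gave 77.0% and 17.4% for the last of these measures. With protein-coding genes only, 379 regions lay between genes. With 200 aligned bases, 67.5% were LTR12C-like. With an overlap of 50%, HEK293T detection minus that in gene bodies was -0.61 points. Leaving out 1 library at a time gave 212 to 252 regions, 86.9 to 90.8% LTR12C-like, 79.8 to 91.0% in HEK293T, 13.0 to 14.9% of copies, and -0.34 (without H1 replicate 2) to 1.93 points for HEK293T detection. Without regions under 20% G and C, an alternative chosen after seeing the data, 94.4% were LTR12C-like and 90.5% overlapped a HEK293T region. The cause of these shifts was not tested. The median position on the element stayed between 63 and 67 throughout. With same-numbered libraries as pairs, a replicate block that the labels do not support, the exact sign-flip p for the differences of 18.5 and 16.9 points was 0.25, the smallest possible. The reads left per library after filtering are unknown, and 3 libraries per line cannot give a p below 0.1.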
